A study of Mus musculus with 6 samples.

Results

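The mural cells of blood vessels, pericytes and smooth muscle cells, were followed here through 10 marker genes in RNA from endothelial cells of Matrigel plugs. The members were given as a list of 6 pericyte markers (Mcam, Kcnj8, Abcc9, Rgs5, Pdgfrb and Cspg4) and 4 contractile markers (Acta2, Tagln, Myh11 and Des). All 10 were measured, by 21 probe sets whose annotation names 1 gene, among 18193 genes in all. Matrigel, a gel of basement membrane proteins, had been placed intraperitoneally in nude mice of the Balb/c strain. Control plugs (3 samples) were made without, and MFAP5 plugs (3 samples) with, recombinant microfibrillar-associated protein 5, a secreted protein of elastic microfibrils. The labels call the cells endothelial, do not state how they were separated from other cells of the plug, and give no number of animals behind the 3 samples of a group, which the series describes as independent. Limma's p-values thus describe the spread among these samples, which may be technical. Each sample was read on 1 Affymetrix Mouse Genome 430 2.0 array.

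Pericytes wrap capillaries inside the same basement membrane as the endothelium, and smooth muscle cells form the contractile wall of larger vessels. Pericytes are recruited when PDGF-B from endothelial cells binds the receptor Pdgfrb, and they are usually recognised by surface proteins, by an ATP-sensitive potassium channel and by the regulator Rgs5. Smooth muscle cells are recognised by proteins of the contractile apparatus and its intermediate filaments. None of these markers is exclusive: endothelial cells also make Mcam, and skeletal muscle makes Des.

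No absolute levels were given. Each probe set was deposited with its median over the 6 arrays set to 0, on a log scale taken as base 2, so a value says how an array compares with the others and not how abundant a transcript was. Levels of different genes could not be compared, and whether endothelial markers were abundant, as the label would have it, could not be checked. Where the groups do not overlap in a probe set, centring makes the innermost control and MFAP5 values mirror images around 0. Differences are MFAP5 minus control.

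The pericyte markers split. Mcam and Kcnj8 fell with MFAP5, Abcc9 and Rgs5 were lower in every MFAP5 sample without passing the threshold, and Pdgfrb and Cspg4 overlapped between the groups. No contractile marker passed, and all 4 overlapped between the groups. In numbers, limma called 2 of the 10 members lower and 0 higher at an adjusted p under 0.05, where it called 2.79% of all genes lower and 0.759% higher. At an unadjusted p under 0.05 there were 4 members, all lower, against 14.4% of all genes. Those 4 members were also the ones in which each MFAP5 sample lay below each control, against 17.8% of all genes. For reading the lists below, 11935 of the 18193 genes had a lower mean with MFAP5, and 3584 had an unadjusted p under 0.05 in either direction. Of the 21 probe sets 2 were called lower, those of Mcam and Kcnj8, against 1.72% of all probe sets. The count of members called was 1 (Mcam) without control replicate 2 or 3, and 3 without control replicate 1 (with Rgs5) or MFAP5 replicate 3 (with Abcc9). Differences between arrays of bulk RNA cannot tell fewer cells of a type from less RNA per cell.

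**Figure D1:**
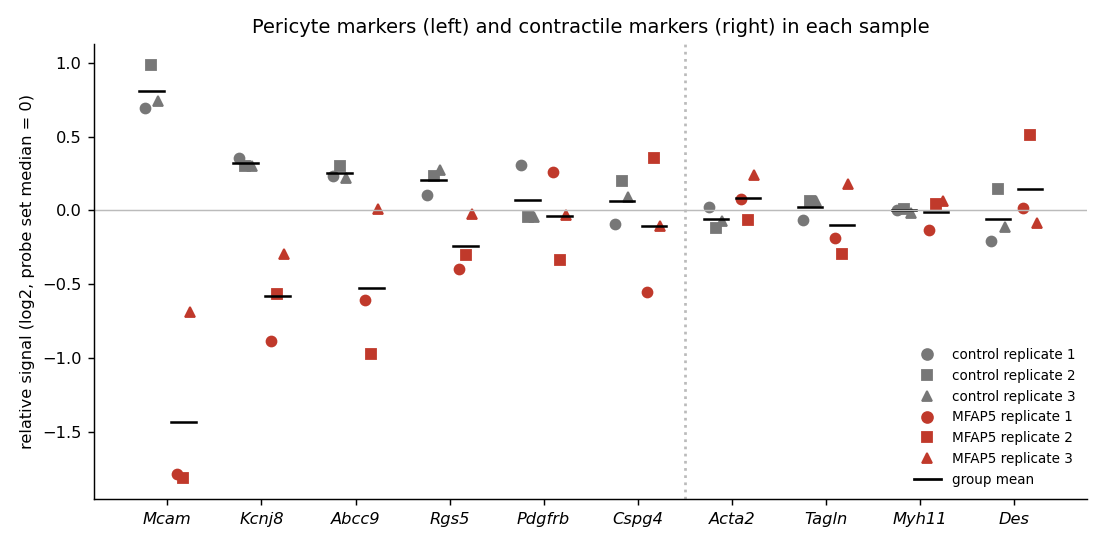
Relative log2 signal (vertical axis) of each marker gene (horizontal axis) in the 3 control samples (grey) and 3 MFAP5 samples (red), with symbols for the replicate number and a bar at each group mean; pericyte markers are left of the dotted line and contractile markers right. The groups separate in Mcam, Kcnj8, Abcc9 and Rgs5 and overlap in the other 6 genes.

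The upstream sequences of the 3 members with the lowest differences are shown because Kcnj8 and Abcc9 lie next to each other in the genome and read lower in every MFAP5 sample, although only Kcnj8 passed, whereas Mcam lies elsewhere. The sequences are the 250 bases before the annotated start, from RefSeq (GRCm38.p6), 5′ to 3′ on the gene's strand. Capitals mark the GC box GGGCGG on either strand. The first is Mcam at chr9:44134408-44134657 (plus strand), the second Kcnj8 at chr6:142571615-142571864 (minus strand), and the third Abcc9 at chr6:142702275-142702524 (minus strand).
Mcam: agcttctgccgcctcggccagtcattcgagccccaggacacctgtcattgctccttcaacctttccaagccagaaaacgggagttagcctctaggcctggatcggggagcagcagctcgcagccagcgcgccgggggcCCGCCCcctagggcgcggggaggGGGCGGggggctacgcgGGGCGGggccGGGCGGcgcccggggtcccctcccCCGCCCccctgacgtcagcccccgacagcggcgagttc
Kcnj8: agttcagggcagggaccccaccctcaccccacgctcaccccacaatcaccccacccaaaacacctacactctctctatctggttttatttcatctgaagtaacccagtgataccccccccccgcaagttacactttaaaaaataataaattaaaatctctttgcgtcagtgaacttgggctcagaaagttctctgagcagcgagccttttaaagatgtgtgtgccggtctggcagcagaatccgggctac
Abcc9: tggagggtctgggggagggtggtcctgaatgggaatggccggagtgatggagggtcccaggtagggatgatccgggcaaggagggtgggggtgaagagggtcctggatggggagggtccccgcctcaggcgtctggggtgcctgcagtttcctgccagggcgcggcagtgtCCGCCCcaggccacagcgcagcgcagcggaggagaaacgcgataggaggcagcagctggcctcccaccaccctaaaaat

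The Mcam window held 5 GC boxes and 73.6% G and C, the Abcc9 window 1 GC box and 66.8%, and the Kcnj8 window none and 49.2%. Among 32851 windows of this length 32.7% held a GC box and 1.93% held at least 5, and the median share of G and C was 52.4%. The table held windows for 7 of the 10 members, those of Mcam, Kcnj8, Abcc9, Rgs5, Cspg4, Acta2 and Des, and not for Pdgfrb, Tagln and Myh11. The CArG box, the site of serum response factor, was searched only in its strict form CCWWWWWWGG, where W is A or T. It was matched in none of the 7 and in 1.47% of all windows. Variants with G or C in the core were not searched, so their absence is not shown. A TATAAA on either strand was matched in none of the 7 and in 12.4% of all. These are matches of letters in a short window and say nothing of binding.

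Mcam, the cell adhesion molecule CD146 of pericytes and endothelium, had the largest difference of the 10. Its signals were 0.69, 0.99 and 0.74 in the control samples and -1.79, -1.82 and -0.69 in MFAP5 replicates 1, 2 and 3. Every MFAP5 sample lay below every control, and MFAP5 replicate 3 was the nearest to them. Mcam fell by 2.24 on the log2 scale (SE 0.28, n = 3 in each group, 95% interval -2.87 to -1.60; limma adjusted p = 0.00359), which is 4.72-fold lower if the base is 2. Only 49 of 18193 genes had a lower difference. The gene rests on a single probe set. It passed whichever sample was left out, with differences between -2.61 and -2.05.

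The ATP-sensitive potassium channel of mural cells is built from the pore subunit Kir6.1, encoded by Kcnj8, and the regulatory subunit SUR2, encoded by Abcc9. Kcnj8 stood at 0.36, 0.30 and 0.30 on the control arrays and at -0.89, -0.56 and -0.30 with MFAP5. The controls lay within a narrow band, and the MFAP5 samples were all below it. Kcnj8 fell by 0.90 (SE 0.15, n = 3 in each group, 95% interval -1.24 to -0.56; limma adjusted p = 0.0145), a 1.87-fold lower signal. Without control replicate 2 the adjusted p was 0.0705 and without control replicate 3 it was 0.0752, at differences of -0.91 in both cases. With the spike-in level of each array as a covariate it was 0.0569. Kcnj8, too, has a single probe set.

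Abcc9 had gene values of 0.23, 0.30 and 0.22 among controls and -0.61, -0.97 and 0.0082 with MFAP5. The third MFAP5 sample was close to the controls and the other two were well below them. The difference was -0.78 ± 0.22 (SE, n = 3 in each group, 95% interval -1.27 to -0.28) and missed the threshold (limma adjusted p = 0.0974). Without MFAP5 replicate 3 it was -1.04 and passed (adjusted p = 0.00767). With any other sample left out Abcc9 missed the threshold (adjusted p = 0.0911 to 0.294), and its difference was -0.55 without MFAP5 replicate 2. The 3 probe sets of Abcc9 gave differences of -0.89, -0.78 and -0.66, none of which passed by itself. The groups were apart in the first of them and overlapped in those at -0.78 and -0.66. The separation of the gene values thus does not hold in each probe set. The channel's paralogs of endocrine cells and striated muscle showed small values: Kcnj11, the pore subunit Kir6.2, had a difference of -0.13 (95% interval -0.34 to 0.075) and Abcc8, which encodes SUR1, one of -0.070 (-0.28 to 0.14). Neither passed, although each MFAP5 sample lay below each control in both. In the annotation Kcnj8 and Abcc9 are adjacent protein-coding genes, and the 95% intervals of their differences overlapped.

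Rgs5 encodes a GTPase-activating protein that shortens signalling of G protein-coupled receptors and is a widely used pericyte marker. Its gene values were 0.11, 0.23 and 0.27 in control samples and -0.40, -0.30 and -0.022 with MFAP5, again without overlap and again with MFAP5 replicate 3 nearest the controls. The difference of -0.45 ± 0.12 (SE, n = 3 in each group, 95% interval -0.73 to -0.16) missed the threshold (limma adjusted p = 0.0933). Without control replicate 1 it was -0.49 with an adjusted p = 0.0494. Rgs5 missed the threshold with any other sample left out (adjusted p = 0.0554 to 0.321), and its difference was -0.37 without MFAP5 replicate 1.

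The 4 probe sets of Rgs5 disagreed in size, at -1.11, -0.46, -0.14 and -0.078. The first of them read 0.48, 0.20 and 0.39 on the control arrays and -1.41, -0.65 and -0.20 with MFAP5 (limma adjusted p over probe sets = 0.0688). The 3 others overlapped between the groups. Averaging them into 1 gene value thus sets a probe set with a large difference beside a pair near 0.

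Rgs4, the protein-coding neighbour of Rgs5 and a member of the same R4 subfamily of RGS proteins, was at 0.17, 0.14 and 0.30 among controls and at -0.65, -0.70 and -0.075 with MFAP5. Its difference was -0.68 ± 0.17 (SE, n = 3 in each group; limma adjusted p = 0.0670). Without MFAP5 replicate 3 Rgs4 passed (adjusted p = 0.00748), and with any other sample left out it missed the threshold (0.0615 to 0.250). Among the 9 R4 genes measured limma called 0, with 4 at an unadjusted p under 0.05, and 1 higher and 1 lower without control replicate 1. Rgs4 and Rgs5 had negative differences, while Rgs1 and Rgs16, better known from leukocytes, had positive ones of 1.34 and 1.06 (adjusted p = 0.0751 and 0.0767); Rgs1 passed without MFAP5 replicate 3 at a smaller difference of 0.88 (adjusted p = 0.0195), and both passed without MFAP5 replicate 2 (0.0292 and 0.00795). MFAP5 replicate 3 had the highest Rgs1 signal, 1.89, where replicates 1 and 2 had 0.67 and 0.30.

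Pdgfrb, the receptor through which pericytes are recruited, had gene values of 0.31, -0.045 and -0.046 in control samples and 0.26, -0.34 and -0.034 with MFAP5. The groups overlapped, and replicate 1 of each was its highest. The difference was -0.11 ± 0.17 (SE, n = 3 in each group, 95% interval -0.49 to 0.28; limma adjusted p = 0.744). It was -0.26 without MFAP5 replicate 1, and slightly positive without MFAP5 replicate 2 (0.040) or control replicate 1 (0.0083). Its 2 probe sets had opposite signs, -0.45 and 0.23, and neither passed over all probe sets (adjusted p = 0.229 and 0.700). In the second, control replicate 1 read 0.64 where control replicates 2 and 3 read -0.41 and -0.44.

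Cspg4, the chondroitin sulfate proteoglycan NG2 of the pericyte surface, was at -0.095, 0.20 and 0.090 on the control arrays and at -0.56, 0.35 and -0.11 with MFAP5. The MFAP5 samples held the lowest and the highest of the 6 values. The difference was -0.17 ± 0.21 (SE, n = 3 in each group, 95% interval -0.65 to 0.31; limma adjusted p = 0.682), and it was 0.059 without MFAP5 replicate 1 and -0.40 without MFAP5 replicate 2. The probe sets of Cspg4, at -0.19 and -0.14, were alike.

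**Figure D2:**
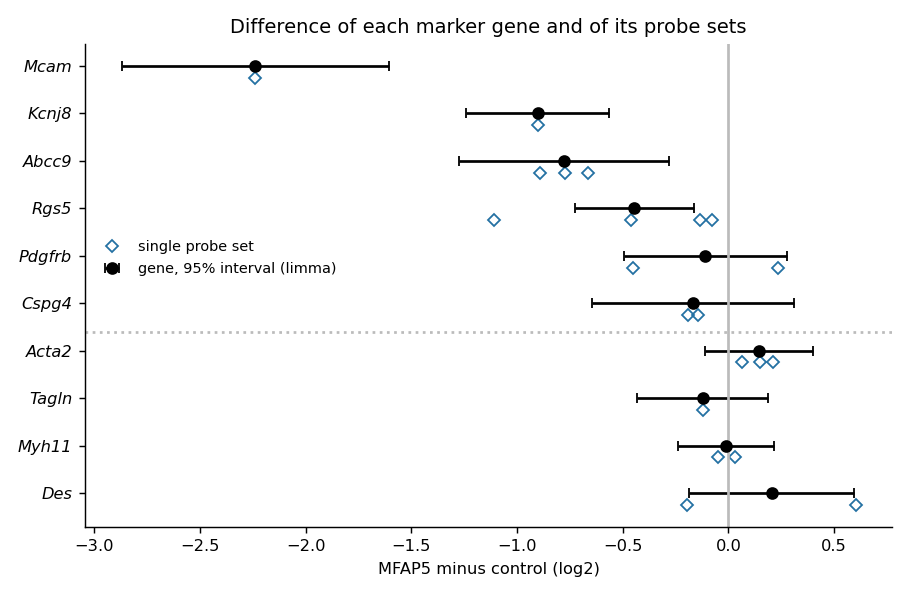
MFAP5 minus control on the log2 scale (horizontal axis) for each marker gene (vertical axis); black points are gene values with 95% intervals from limma (n = 3 in each group) and open diamonds are single probe sets, with pericyte markers above the dotted line. The intervals of Mcam, Kcnj8, Abcc9 and Rgs5 lie below 0, and those of the other 6 genes include it.

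The contractile markers gave small differences. Acta2 encodes alpha smooth muscle actin, the thin filament protein of smooth muscle and of activated fibroblasts. Acta2 stood at 0.021, -0.12 and -0.070 among controls and at 0.080, -0.066 and 0.24 with MFAP5. The difference was 0.14 ± 0.11 (SE, n = 3 in each group, 95% interval -0.11 to 0.40; limma adjusted p = 0.509). It was 0.064 without MFAP5 replicate 3 and 0.22 without MFAP5 replicate 2. Its 3 probe sets lay between 0.064 and 0.21.

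Tagln encodes transgelin (SM22), an actin-binding protein of smooth muscle. It stood at -0.064, 0.064 and 0.066 in control samples and at -0.18, -0.29 and 0.18 with MFAP5, where replicate 3 was the highest of all 6. The difference was -0.12 ± 0.14 (SE, n = 3 in each group, 95% interval -0.43 to 0.19; limma adjusted p = 0.638). It was -0.26 without MFAP5 replicate 3 and -0.026 without MFAP5 replicate 2.

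Myh11, the smooth muscle myosin heavy chain and the most specific of the 4 for smooth muscle, was at 0.0046, 0.011 and -0.015 on the control arrays and at -0.14, 0.046 and 0.061 with MFAP5. Its difference of -0.0098 ± 0.099 (SE, n = 3 in each group; limma adjusted p = 0.967) had a 95% interval of -0.24 to 0.22, and it was 0.053 without MFAP5 replicate 1 and -0.045 without MFAP5 replicate 3. The 2 probe sets were at 0.032 and -0.051.

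Des encodes desmin, the intermediate filament protein of muscle that pericytes also make. Des was at -0.20, 0.14 and -0.11 among controls and at 0.017, 0.51 and -0.087 with MFAP5. The difference was 0.20 ± 0.17 (SE, n = 3 in each group, 95% interval -0.19 to 0.59; limma adjusted p = 0.532), and it was 0.022 without MFAP5 replicate 2, 0.13 without control replicate 1 and 0.32 without MFAP5 replicate 3. The probe sets of Des had opposite signs, 0.60 and -0.19, and the first of them, in which each MFAP5 sample lay above each control, read 1.06 in MFAP5 replicate 2 (limma adjusted p over probe sets = 0.268). Of 19 skeletal muscle markers, whose tissue is the other large source of desmin, 15 had a lower mean with MFAP5, 1 was called lower (Myl1, an alkali myosin light chain) and the median difference was -0.15. A lower mean was also the more frequent direction over all genes (11935 of 18193). Without control replicate 1 limma called 2 of the 19 lower, and without control replicate 2 the median was -0.087.

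The intervals of the fit over all 6 samples bound these differences. None of the 4 contractile intervals reached the Mcam interval, whose upper end was -1.60, or the Kcnj8 difference of -0.90. The lowest contractile bound was -0.43, for Tagln, whose difference was larger without MFAP5 replicate 3, as given above. Of the pericyte genes that overlapped between the groups, Cspg4 and Pdgfrb had lower bounds of -0.65 and -0.49.

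Per array, the mean of the 6 pericyte markers was 0.27, 0.33 and 0.26 in control samples and -0.66, -0.61 and -0.19 in MFAP5 replicates 1, 2 and 3. The mean of the 4 contractile markers was -0.061, 0.025 and -0.032 on the control arrays and -0.055, 0.049 and 0.098 with MFAP5. The contractile mean minus the pericyte mean was thus -0.33, -0.30 and -0.30 among controls and 0.61, 0.66 and 0.29 with MFAP5. Its group means, -0.31 ± 0.016 and 0.52 ± 0.20 (SD, n = 3 in each group), differed by 0.83. This score is a description without a test, since its members were chosen with results of these data known. Mcam carries much of it, and the median difference was -0.61 over the pericyte and 0.066 over the contractile markers, beside -0.079 over all genes. Without MFAP5 replicate 2 the contractile median was -0.0019, so its sign rests on that sample.

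**Figure D3:**
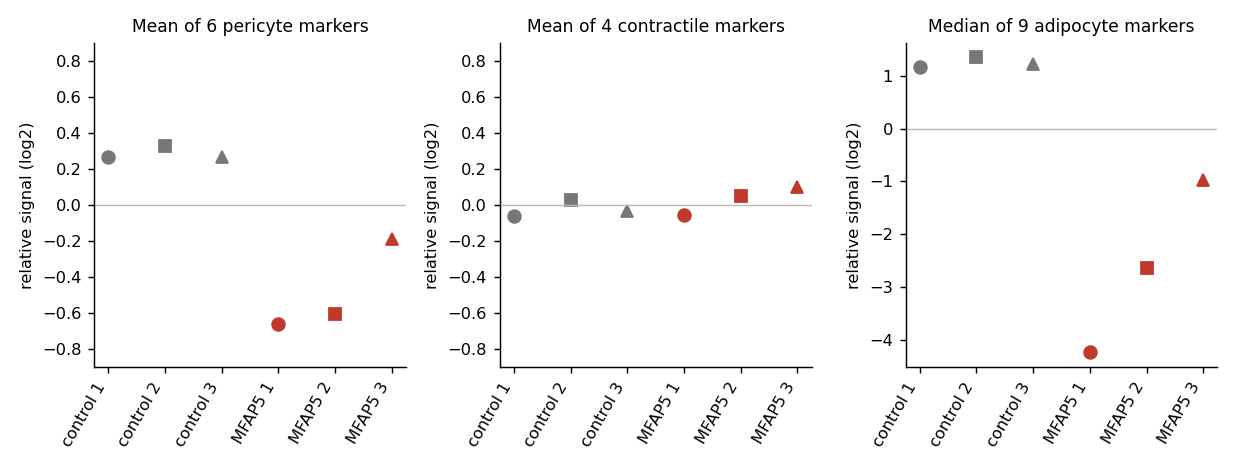
Relative log2 signal (vertical axes, wider in the third panel) of the mean of the 6 pericyte markers, the mean of the 4 contractile markers and the median of 9 adipocyte markers in each array (horizontal axes; control grey, MFAP5 red). Pericyte means lie between 0.26 and 0.33 in control samples and between -0.66 and -0.19 with MFAP5, contractile means stay between -0.061 and 0.098, and adipocyte medians run from 1.17 to 1.35 and from -4.24 to -0.97.

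Markers of fat cells were lower with MFAP5 as well. All 9 measured adipocyte markers had a lower mean with MFAP5, 8 were called lower by limma, and the groups did not overlap in any of the 9. Without control replicate 2 or 3 the calls were 5, and with a variance trend 4. Their median per array ran from 1.17 to 1.35 on the control arrays and was -4.24, -2.64 and -0.97 in MFAP5 replicates 1, 2 and 3. MFAP5 replicate 3 was the sample nearest the controls in this list, as it was in Mcam, Kcnj8, Abcc9 and Rgs5. The part of the adipocyte markers in the pericyte result was not tested. Of 16 endothelial markers limma called 0, with 6 at an unadjusted p under 0.05, and 13 had a lower mean with MFAP5, at a list median of -0.23, where all genes had 3584 and 11935 of 18193. Without control replicate 1 it called 4 of them lower. The endothelial medians per array were -0.051, 0.29 and 0.16 among controls and -0.087, -0.18 and -0.027 with MFAP5, so control replicate 1 lay among the MFAP5 samples. Tek and Plvap came nearest the threshold, at -0.75 and -0.67 (adjusted p = 0.0592 and 0.0543). Both passed with a variance trend (0.0459 and 0.0392) and without control replicate 1 (0.0340 and 0.0140). Both missed the threshold with any other sample left out, at an adjusted p of up to 0.228 for Tek and 0.225 for Plvap. Of 11 fibroblast markers 9 had a higher mean and 1, Pi16, was called lower by 0.93, a call lost in 4 of the 6 fits with a sample left out (adjusted p = 0.0753 to 0.138), with quantile normalization (0.0712) and with the spike-in covariate (0.107), and made without control replicate 1 or MFAP5 replicate 1. Without control replicate 1, 3 fibroblast markers were called higher. Among 10 mesothelial and 6 cardiac markers limma called 0, with 1 and 0 at an unadjusted p under 0.05.

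Other genes known from pericytes were read from a list of 20, of which 19 were measured. Limma called 1 lower and 0 higher, and the median difference was 0.016, whose sign changed in each fit with a sample left out. Without MFAP5 replicate 3 limma called 3 lower. The lower gene was Steap4, a metalloreductase made by pericytes and also by fat cells. Steap4 read 1.37, 0.77 and 0.80 in control samples and -1.31, -1.51 and -0.75 with MFAP5. It fell by 2.17 (SE 0.22, n = 3 in each group; limma adjusted p = 0.00162), and its groups were far apart. Notch3, the Notch receptor of mural cells, was at 0.025, -0.28 and 0.14 on the control arrays and at -0.12, -0.078 and 0.14 with MFAP5, a difference of 0.016 with a 95% interval of -0.30 to 0.33. Heyl, a target of Notch signalling, had a positive difference of 0.55 that missed the threshold (adjusted p = 0.0842; 0.0331 when each gene was read from its most variable probe set), although all 3 MFAP5 values lay above the controls.

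Of 27 measured genes among 28 listed for smooth muscle contraction, limma called 1 lower and 0 higher, with a median of -0.060. It called 2 lower and 1 higher without control replicate 1, and 2 lower without MFAP5 replicate 3. The median was 0.014 without MFAP5 replicate 1. The lower gene was Hspb6, a small heat shock protein of muscle also known as Hsp20. Hspb6 read 0.42, 1.15 and 1.04 among controls and -0.77, -0.42 and -0.42 with MFAP5. It fell by 1.41 (SE 0.20, n = 3 in each group; limma adjusted p = 0.00697). Cald1, caldesmon, had a difference of 0.62 (adjusted p = 0.0959, and 0.0144 without control replicate 1) and Actg2, the gamma actin of visceral smooth muscle, one of -0.34 (adjusted p = 0.246). Acta1, the skeletal muscle actin, had the smallest p of the 6 actin genes, at a difference of -0.54 (adjusted p = 0.236). The 6 had differences between -0.54 and 0.34, and limma called 0 of them, with 2 at an unadjusted p under 0.05, and 1 higher without control replicate 1.

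The factors that control contractile genes were read as well. Srf, serum response factor, had a difference of 0.023 (95% interval -0.28 to 0.32) and Myocd, its coactivator myocardin, one of -0.22 (-0.49 to 0.040). Of the 7 genes on this list 1 was called higher: Klf4, a Kruppel-like factor that represses contractile genes in smooth muscle and is also an immediate early gene of endothelium. Klf4 read -0.16, -0.77 and -0.71 in control samples and 0.16, 0.48 and 0.47 with MFAP5. It rose by 0.92 (SE 0.18, n = 3 in each group; limma adjusted p = 0.0286), but missed the threshold with any of 4 samples left out, at an adjusted p of 0.130 and 0.141 without control replicates 2 and 3 and 0.0823 and 0.0765 without MFAP5 replicates 2 and 3. With the spike-in level of each array as a covariate it was 0.0524.

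On the side of pericyte recruitment, limma called 0 of 17 genes, with 3 at an unadjusted p under 0.05 and a list median of 0.054. Without control replicate 1 it called 1 lower, Tek, and without MFAP5 replicate 3 it called 1 higher, Jag1 (adjusted p = 0.0340 and 0.0409). The median was -0.0061 without control replicate 1 and -0.0021 without MFAP5 replicate 2. Pdgfb, the endothelial ligand of Pdgfrb, was at -0.20, 0.11 and -0.024 on the control arrays and at -0.20, 0.062 and 0.13 with MFAP5, a difference of 0.036 with a 95% interval of -0.26 to 0.33. Jag1, the Notch ligand through which endothelium acts on mural cells, had the largest positive difference of the list, 1.34 ± 0.36 (SE, n = 3 in each group; limma adjusted p = 0.0852). MFAP5 replicate 2 had a Jag1 signal of 1.72 against 0.51 in replicate 1 and 0.15 in replicate 3. Its difference was 0.87 without MFAP5 replicate 2. Angpt1, the mural ligand of the receptor Tek, had a difference of -0.20, with MFAP5 replicate 3 at -0.43.

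**Figure D4:**
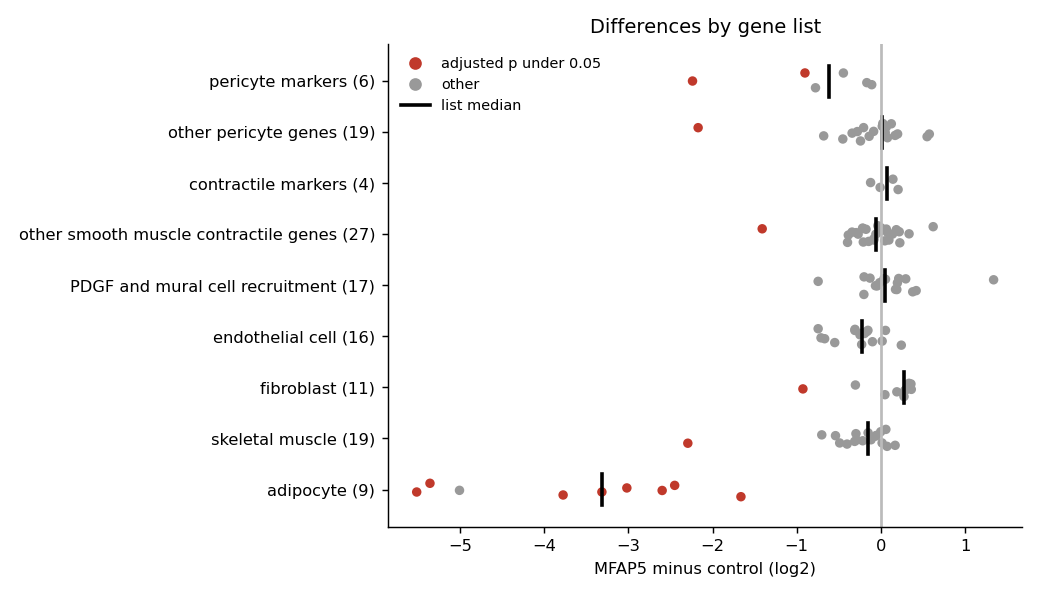
MFAP5 minus control on the log2 scale (horizontal axis) of each measured gene in 9 lists (rows, number of genes in brackets), with called genes in red and a black bar at the list median; vertical scatter within a row has no meaning. The pericyte markers have a median of -0.61, the other pericyte genes one of 0.016, and the adipocyte markers one of -3.31.

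Array-wide measures put these differences in context. The medians of the 6 arrays lay between -0.026 and 0.049. Control replicate 1 was unlike the remaining controls, with which it correlated at 0.046 and 0.10 over all genes, while control replicates 2 and 3 correlated at 0.70. Genes are not independent replicates, so these values only describe the arrays. The hybridization spike-ins averaged -0.32 on control replicate 1, 0.64 and 0.65 on the other two controls, and between -0.038 and -0.0065 with MFAP5 (two-sided exact permutation, p = 0.4). The 3′ and 5′ probe sets of the beta-actin and Gapdh controls are compared as a sign of RNA quality. For beta-actin, 3′ minus 5′ was higher on every MFAP5 array than on any control array. The mean difference was 0.12 (two-sided exact permutation, p = 0.1, the smallest that 3 against 3 allows). For Gapdh the groups overlapped, at a mean difference of 0.081 (two-sided exact permutation, p = 0.4). Since probe sets are centred, these values compare arrays and do not show a 3′ excess on any of them. The part of these measures in the marker differences was not tested beyond the alternatives given in the closing section.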

How the data were processed

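Biotinylated cRNA of each sample was hybridized to 1 array, per the labels' protocols. The submitters' processing notes name MAS5, without a scaling target. The deposited numbers were log2 signals as far as they show: positive and negative, with a median of 0 for every probe set over the 6 arrays to within 5e-07. If the base were another, the folds would change and the tests would not. Centring left no level, so no filter on dim probe sets was possible.

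Without 64 control probe sets, 45037 were tested, of which 34945 had 1 gene symbol, 932 several and 9160 none listed. Probe sets of 1 gene were averaged. MFAP5 and control were compared in limma 3.58.1 under R 4.3.3 (lmFit and eBayes, two-sided, Benjamini-Hochberg over all 18193 genes or all probe sets, threshold 0.05). Intervals and SEs are limma's moderated ones. The members and gene lists were chosen with earlier results of these data known. All members were named; from the lists of related genes, called genes (up to 4) or, with none, the 2 of smallest p, and the functional partners of members. Cald1, Heyl, Angpt1 and Rgs16, and Myl1, Pi16 and Plvap from the lists of other cell types, were named after their values were seen. Listed genes without a probe set of 1 symbol were not analysed here. The fit was tested on simulated data. Alternatives were other normalizations, variance models, weights, gene summaries, a replicate block and leaving out each sample, and, added after the data had been seen, the spike-in level as a covariate.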

Additional observations from a re-analysis of the deposited data

How the results depend on the processing

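Of the 10 members 2 were called lower, in a fit that called 646 genes and 1478 probe sets. Quantile normalization, median centring, a variance trend and the replicate block gave 2 members too, Mcam and Kcnj8 in each. With array weights limma called 4 members (Abcc9 and Rgs5 as well), 4004 genes and 6868 probe sets. With spike-ins as a covariate, chosen after seeing the data, it called 1 member (Mcam), 364 genes and 849 probe sets. Without moderation of the variance it called 0 members, 1 gene and 0 probe sets (2815 genes and 6433 probe sets at unadjusted p under 0.05), and Mcam and Kcnj8 had adjusted p = 0.158 and 0.176. Among plain _at probe sets 1 of 9 members, Kcnj8, was called, since the single probe set of Mcam is not of that kind. Leaving out 1 sample gave 1 to 3 members, 219 to 2674 genes and 341 to 6190 probe sets, with the highest gene and probe set counts without control replicate 1 and the lowest without control replicate 3. Apart from the missing Mcam probe set, the cause of these changes was not tested.

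The change of the contractile minus pericyte score was 0.83, and it was 1.03 when each gene was read from its most variable probe set, 0.63 with plain _at probe sets and 0.76 to 0.94 with 1 sample left out. Mcam, Kcnj8, Abcc9, Rgs5, Acta2, Tagln and Des kept their sign in every fit run. Pdgfrb, Cspg4 and Myh11 changed sign in 3, 1 and 4 fits. Neither these last genes nor Acta2, Tagln and Des passed in any fit. The variance trend, the replicate block and the fit without moderation left every difference unchanged, so no sign could change in them. With the replicate block 743 genes and 1933 probe sets were called. Deviations from the group mean correlated between samples of 1 number at 0.18, 0.055 and 0.072, and 5 of 6 samples correlated best with their own number. Whether samples of 1 number are pairs is not settled by these values. The block changed no member's call, but Rgs4 and Rgs16 then passed (adjusted p = 0.0365 and 0.0381). Precision is limited by the number of arrays. Centred values do not show signal over background.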
